A study of Homo sapiens with 6 samples.

Results

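Lysosomal hydrolases and membrane proteins were examined through 37 genes in U251 (U251MG) cells, a human line derived from a glioblastoma, with and without CRISPR targeting of the kinase NUAK2. The genes were chosen by symbol from textbook function, with earlier results of these data known. They are soluble hydrolases, their activator proteins, proteins of the lysosomal membrane and the transcription factors TFEB and TFE3. Each symbol was matched by NCBI gene identifier to 1 row of a table of 28395 identifiers. All 37 genes were found in the table, and 35 of them had enough reads to be tested. CTSO and NEU1 did not and are described separately.

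The study sequenced bulk RNA from 6 libraries, 3 labelled WT and 3 labelled NUAK2-CR, to ask how loss of NUAK2 alters gene expression in glioma cells. NUAK2-CR cells carried a CRISPR guide against NUAK2. According to the study's methods, that guide was delivered in GFP and mCherry lentiviral vectors, and single cells positive for both markers were sorted and expanded as clones. The labels do not name the clone behind the NUAK2-CR libraries and give no vector for the WT libraries, so NUAK2 loss cannot be told apart from the effects of cloning or of the vectors. The labels also do not say whether the 3 libraries of a group came from separate cultures, so p-values measure the spread between these libraries, which may be technical.

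Lysosomes are acidic organelles in which proteins, glycans and lipids delivered by endocytosis and autophagy are degraded. Most of their soluble hydrolases are tagged with mannose 6-phosphate in the Golgi and carried to the lysosome by receptors, and inherited loss of single members causes the lysosomal storage disorders, many of which affect the brain. Transcription of many lysosomal genes is promoted by TFEB and TFE3, basic helix-loop-helix factors that bind an E-box element and whose entry into the nucleus is held back by mTORC1 when nutrients are plentiful. Secreted cathepsins also cleave extracellular matrix proteins and have long been studied in glioma invasion.

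Total counts per library ranged from 35310946 to 55574081 in WT and from 29648445 to 33776712 in NUAK2-CR cells. The targeted gene was lower but still detected in the NUAK2-CR libraries: NUAK2 (NCBI gene 81788, chr1:205302063-205321745) had 1926, 1457 and 1580 normalized counts in the WT libraries and 799, 961 and 849 in NUAK2-CR cells, a log2 fold change of -0.93 ± 0.11 (SE, adjusted p = 1.8e-05). The 100 tested genes nearest to NUAK2 on its chromosome had a median log2 fold change of -0.44. The part of these surroundings in the NUAK2 value was not tested. Counts per gene do not show whether a small CRISPR lesion is present. The study reported NUAK2 deletion by immunoblot and qPCR in independent U251 clones, and protein was not measured in these libraries. Of 10 markers written for a glioma line, 9 were tested, and OLIG2 had 0 counts in every library. The summed level of the glioma markers ran from 335637 to 371765 normalized counts in WT and from 150634 to 158058 in NUAK2-CR cells, and 7 of the 9 fell, GFAP, NES, CD44, SOX2, VIM, S100B and PDGFRA, while EGFR rose and SOX9 did not pass (adjusted p = 0.159). Of 10 myeloid markers, 6 had 0 counts in all libraries and 9 never exceeded 40 counts. One of the 6, AIF1, lies in a region with few reads that is described with NEU1 below. The myeloid sum ran from 217 to 261 in WT and from 41.9 to 51.6 in NUAK2-CR cells, nearly all of it CSF1R. The part of these marker differences in the lysosomal results was not tested.

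Of the 35 tested lysosomal genes, 20 (57.1%) rose in NUAK2-CR cells and 7 (20%) fell at an adjusted p under 0.05, and 8 did not pass. Among all 14873 genes tested, 26.3% rose and 28.2% fell at the same threshold, so the upward share of the lysosomal genes was above the background and the downward share below it. As the members were chosen with earlier results of these data known, these shares are a description and not a test. The median log2 fold change was 0.473 over the lysosomal genes and -0.010 over all genes, with individual members between -1.217 (GLA) and 1.659 (TPP1). Bulk RNA cannot tell a change in transcript per cell from a change in the share of cells expressing a gene. As 33 of the 35 had a mean of at least 500 normalized counts, where tests have more power, the counts were also set against the 9056 genes at that level. Of these 33 members 57.6% rose and 21.2% fell, compared with 29.5% and 32.8% of all genes at that level.

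Most of the changes were moderate. Changes over 2-fold were found for 8 of the 35 members (22.9%), 7 upward and 1 downward, against 13.9% of all genes tested. None of the 35 exceeded 4-fold (an absolute log2 fold change over 2), a limit that 4.72% of all genes passed. The ranges of the 2 groups were separate for 26 of the 35 (74.3%), compared with 61.4% of all genes. The plot of each library's level relative to WT shows the NUAK2-CR libraries as a tight cluster for most members, with more scatter on the WT side.

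**Figure D1:**
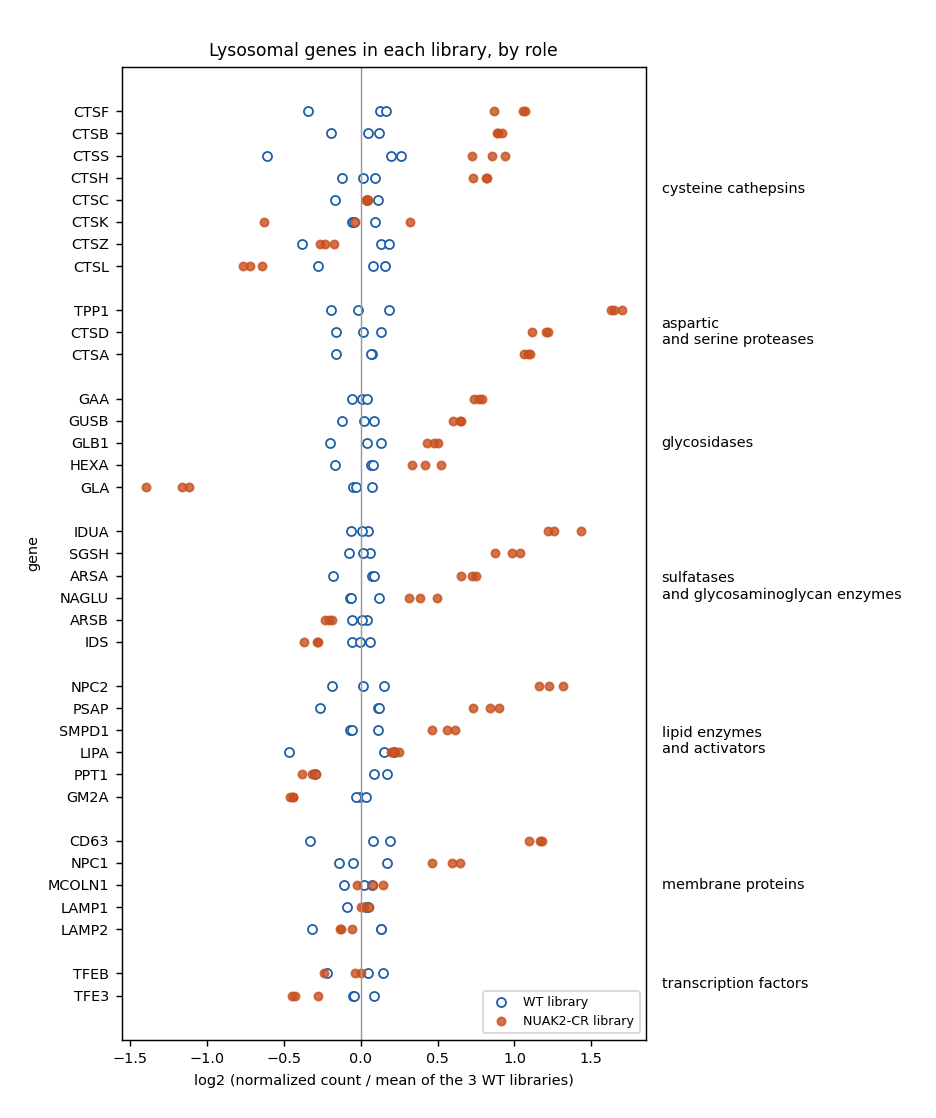
Level of the 35 tested lysosomal genes in each library, on the horizontal axis as the log2 ratio of its normalized count to the mean of the 3 WT libraries, with genes grouped by role on the vertical axis. Open circles are WT and filled circles NUAK2-CR libraries, and TPP1 lies farthest to the right and GLA farthest to the left.

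In that scatter 1 library stood out. WT replicate 1 had the lowest WT value for 29 of the 35 members (82.9%), whereas it was the lowest of the 3 WT libraries for 37.6% of all genes tested. Leaving out a lowest WT value raises the WT mean, which by itself lowers a fold change. Without WT replicate 1, the fold change of 29 members was lower, with a median shift of -0.062 over all 35 on the log2 scale, and the members' median was 0.389. The same 20 genes still rose in its absence, and 9 fell rather than 7, with CTSZ (-0.374, adjusted p = 0.000184) and LAMP2 (-0.232, adjusted p = 0.00156) added.

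The strongest and most uniform group consisted of the aspartic and serine proteases, all 3 of which rose more than 2-fold (median log2 fold change 1.181). A change of that size, in either direction, was found for 13.9% of all genes tested. TPP1 (NCBI gene 1200, chr11:6612768-6619422), a tripeptidyl peptidase whose loss causes a childhood form of neuronal ceroid lipofuscinosis, had 5742, 7427 and 6478 normalized counts in the WT libraries and 21258, 20532 and 20219 in NUAK2-CR cells. Every NUAK2-CR library was far above every WT library, and the log2 fold change of 1.66 ± 0.09 (SE, adjusted p = 1.74e-08) was the largest rise among the members. CTSD (NCBI gene 1509, chr11:1752755-1763927), the main lysosomal aspartic protease, had 36963, 41770 and 45324 in WT and 96223, 95451 and 89610 in NUAK2-CR cells (log2 fold change 1.18 ± 0.08, adjusted p = 1.3e-07). CTSA (NCBI gene 5476, chr20:45891335-45898820), a serine carboxypeptidase that also shields beta-galactosidase and neuraminidase from degradation, had 8321, 9768 and 9738 in WT and 19679, 19862 and 19355 in NUAK2-CR cells (log2 fold change 1.08 ± 0.08, adjusted p = 1.65e-07). Both genes were separated between the groups without overlap.

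The cysteine cathepsins, papain-like proteases, were divided. Of 8 tested, CTSB, CTSF, CTSH and CTSS rose, CTSL fell, and CTSC, CTSK and CTSZ did not pass, with a median log2 fold change of 0.416. The shares called, 50% higher and 12.5% lower, compare with 26.3% and 28.2% of all genes tested. CTSB (NCBI gene 1508, chr8:11842524-11868087), an abundant endopeptidase and exopeptidase, had 18761, 22160 and 23274 normalized counts in the WT libraries and 39695, 39553 and 40410 in NUAK2-CR cells (log2 fold change 0.90 ± 0.08, adjusted p = 1.68e-06). CTSL (NCBI gene 1514, chr9:87726119-87731469), a potent endopeptidase, went the other way, with 5623, 7192 and 7600 in WT and 4357, 4128 and 4002 in NUAK2-CR cells (-0.71 ± 0.10, adjusted p = 7.1e-05). The lowest WT library of CTSL, replicate 1, was still above the highest NUAK2-CR library. WT cells thus held CTSB and CTSL at 21399 ± 2351 and 6805 ± 1044 normalized counts (SD, n = 3), and NUAK2-CR cells at 39886 ± 459 and 4162 ± 180 (SD, n = 3).

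CTSH (NCBI gene 1512, chr15:78921058-78945046), an aminopeptidase, rose in all NUAK2-CR libraries, from 2067, 2276 and 2405 normalized counts in WT to 3728, 3976 and 3951 (log2 fold change 0.79 ± 0.07, adjusted p = 2.13e-06). CTSF (NCBI gene 8722, chr11:66563464-66568606) had 705, 978 and 1002 in WT and 1632, 1863 and 1877 in NUAK2-CR cells (1.01 ± 0.12, adjusted p = 2.12e-05). CTSS (NCBI gene 1520, chr1:150730188-150765778), best known from antigen presenting cells, was near the bottom of the range, with 55.8, 97.4 and 102 in WT and 154, 163 and 141 in NUAK2-CR cells (0.85 ± 0.24, adjusted p = 0.00971). Its groups did not overlap, but its SE was among the widest of the members. CTSC, which activates serine proteases of immune granules, was level at 7023 ± 687 and 7230 ± 31.3 (SD, n = 3, adjusted p = 0.668). CTSK, the collagenolytic cathepsin of osteoclasts, was low in both groups, and its NUAK2-CR libraries, at 121, 94.1 and 62.6, were spread more widely than the WT libraries, at 93.0, 93.6 and 103 (adjusted p = 0.841). CTSZ, a carboxypeptidase, had 1515, 2155 and 2237 in WT and 1745, 1640 and 1674 in NUAK2-CR cells (-0.22 ± 0.12, adjusted p = 0.148), so that WT replicate 1 was below and the other 2 WT libraries above all NUAK2-CR libraries.

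Glycosidases remove sugars from glycolipids and glycoproteins. Of 5 tested, 4 rose (80%) and 1 fell (20%), against 26.3% and 28.2% of all genes tested. The exception was GLA (NCBI gene 2717, chrX:101397803-101407925), the alpha-galactosidase deficient in Fabry disease, with 1686, 1712 and 1839 normalized counts in the WT libraries and 663, 782 and 806 in NUAK2-CR cells. Its level fell by 1.22 ± 0.09 on the log2 scale (SE, adjusted p = 3.07e-07), the only decrease over 2-fold among the members. GAA (NCBI gene 2548, chr17:80101581-80119881), the acid alpha-glucosidase that degrades glycogen and is deficient in Pompe disease, moved the opposite way, from 3329, 3486 and 3563 in WT to 5771, 5978 and 5893 (0.77 ± 0.06, adjusted p = 8.07e-07). GUSB (NCBI gene 2990, chr7:65960684-65982213), the beta-glucuronidase, went from 1914, 2110 and 2207 to 3251, 3266 and 3153 (0.64 ± 0.07, adjusted p = 1.15e-05). The smaller increases were those of GLB1, the acid beta-galactosidase (0.47 ± 0.08, adjusted p = 0.000457), and HEXA, the alpha subunit of beta-hexosaminidase (0.43 ± 0.08, adjusted p = 0.000738). None of these 5 genes overlapped between the groups, as was the case for 61.4% of all genes tested.

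The sulfatases and other enzymes of glycosaminoglycan breakdown were all called, 4 of 6 upward (66.7%) and 2 downward (33.3%). Of all genes tested, 26.3% rose and 28.2% fell. IDUA (NCBI gene 3425, chr4:986997-1004564), the alpha-L-iduronidase deficient in Hurler syndrome, had 672, 656 and 625 normalized counts in the WT libraries and 1759, 1511 and 1552 in NUAK2-CR cells (log2 fold change 1.30 ± 0.09, adjusted p = 1.12e-07). SGSH (NCBI gene 6448, chr17:80200673-80220333), the heparan N-sulfatase, had 723, 795 and 770 in WT and 1562, 1397 and 1510 in NUAK2-CR cells (0.97 ± 0.08, adjusted p = 1.01e-06). ARSA (NCBI gene 410, chr22:50622754-50628152), which desulfates the myelin lipid sulfatide, had 1119, 939 and 1130 in WT and 1790, 1667 and 1754 in NUAK2-CR cells (0.71 ± 0.09, adjusted p = 2.36e-05). In each of these 3 genes the groups were well apart. NAGLU, which acts on heparan sulfate, also rose (0.40 ± 0.08, adjusted p = 0.00133). The other two enzymes fell slightly, IDS, the iduronate 2-sulfatase of the same degradation route as IDUA, by 0.31 ± 0.07 (adjusted p = 0.00163) and ARSB, which desulfates dermatan and chondroitin sulfate, by 0.21 ± 0.07 (adjusted p = 0.0187) on the log2 scale. The call of ARSB was lost when any library other than WT replicate 1 was left out (adjusted p from 0.0513 to 0.0816).

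Enzymes and activators of lipid breakdown were mixed, with 3 of 6 higher (50%), 2 lower (33.3%) and 1 not passing. Of all genes tested, 26.3% rose and 28.2% fell. NPC2 (NCBI gene 10577, chr14:74479935-74493512), a soluble carrier that hands cholesterol to NPC1, had 2971, 3421 and 3767 normalized counts in the WT libraries and 7560, 8409 and 7923 in NUAK2-CR cells (log2 fold change 1.24 ± 0.09, adjusted p = 2.02e-07). PSAP (NCBI gene 5660, chr10:71816298-71851251), the precursor of the saposins that lift lipids toward their hydrolases, had 59888, 77709 and 78187 in WT and 119283, 128730 and 134038 in NUAK2-CR cells (0.82 ± 0.10, adjusted p = 1.63e-05). For both genes every NUAK2-CR library exceeded every WT library. SMPD1, the acid sphingomyelinase, rose by less (0.55 ± 0.07, adjusted p = 4.95e-05). GM2A, the activator that presents ganglioside GM2 to beta-hexosaminidase, fell from 1610 ± 37.6 to 1181 ± 8.54 (SD, n = 3, -0.45 ± 0.07, adjusted p = 0.000186). PPT1, a palmitoyl thioesterase, was called lower (-0.33 ± 0.10, adjusted p = 0.0166), but WT replicate 1 at 8467 lay inside its NUAK2-CR range of 7993 to 8505, and the call was lost without WT replicate 2 or 3 or NUAK2-CR replicate 1 (adjusted p from 0.0532 to 0.081). LIPA, the acid lipase that hydrolyses cholesteryl esters, did not pass (0.22 ± 0.14, adjusted p = 0.193).

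The membrane proteins differed from one another. CD63 (NCBI gene 967, chr12:55723535-55730041), a tetraspanin of late endosomes, lysosomes and exosomes, had 11372, 15100 and 16312 normalized counts in the WT libraries and 30389, 32233 and 31955 in NUAK2-CR cells (log2 fold change 1.14 ± 0.11, adjusted p = 2.76e-06). NPC1, the cholesterol exporter that receives its cargo from NPC2, rose as well (0.57 ± 0.09, adjusted p = 0.000228). LAMP1 and LAMP2, heavily glycosylated proteins that make up much of the lysosomal membrane and are widely used as its markers, did not pass the test. LAMP1 had 10838, 11789 and 11924 in WT and 11517, 11947 and 11711 in NUAK2-CR cells (0.03 ± 0.07, adjusted p = 0.764). LAMP2 had 19404, 26436 and 26452 in WT and 22032, 21976 and 23217 in NUAK2-CR cells (-0.10 ± 0.10, adjusted p = 0.422). The values of both genes overlapped between the groups. MCOLN1, the lysosomal calcium channel that acts upstream of TFEB, likewise did not pass (0.07 ± 0.08, adjusted p = 0.524).

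Neither transcription factor was higher at the RNA level. TFEB (NCBI gene 7942, chr6:41683978-41736223) had 596, 558 and 464 normalized counts in the WT libraries and 527, 540 and 458 in NUAK2-CR cells, overlapping ranges with a log2 fold change of -0.09 ± 0.12 (SE, adjusted p = 0.558). TFE3 (NCBI gene 7030, chrX:49028726-49043357), the more abundant of the pair, fell from 5560, 5066 and 5069 to 3840, 3891 and 4327 (-0.38 ± 0.07, adjusted p = 0.000788). Their activity depends on phosphorylation and location in the cell, which RNA counts do not measure.

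Summed over all 37 genes, lysosomal transcripts took 0.674%, 0.792% and 0.812% of all counts in the WT libraries and 1.21%, 1.24% and 1.26% in the NUAK2-CR libraries. The mean share was 0.759% ± 0.0747 in WT and 1.23% ± 0.0258 in NUAK2-CR cells (SD, n = 3), a ratio of 1.62. PSAP and CTSD made up a large part of that sum. Without these 2 genes the share went from 0.458% ± 0.0408 to 0.642% ± 0.0103, a ratio of 1.40.

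Levels were compared between genes as normalized counts per kilobase of the canonical transcript. On this scale PSAP was highest in both groups, at 26170 in WT and 46340 in NUAK2-CR cells, followed by CTSD (20120 and 45630), CD63 (13940 and 30820), CTSB (5732 and 10680) and CTSA (4992 and 10570). The order of these 5 was the same in both groups. PSAP and CTSD, neighbours in that order, came close to each other in NUAK2-CR cells. TPP1 moved from rank 12 to rank 7 of the members (1875 to 5919 per kilobase), and GLA from rank 17 to rank 27 (1325 to 569). CTSK (59.3 and 56.7) and CTSS (21.6 and 38.7) were the lowest of the tested members in both groups. The plot of these levels thus shows PSAP, CTSD, CD63, CTSB and CTSA above the line of equal level. Genes below it include GLA, CTSL, TFE3 and PPT1, which was rank 6 in WT and rank 10 in NUAK2-CR cells (4558 and 3627).

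**Figure D2:**
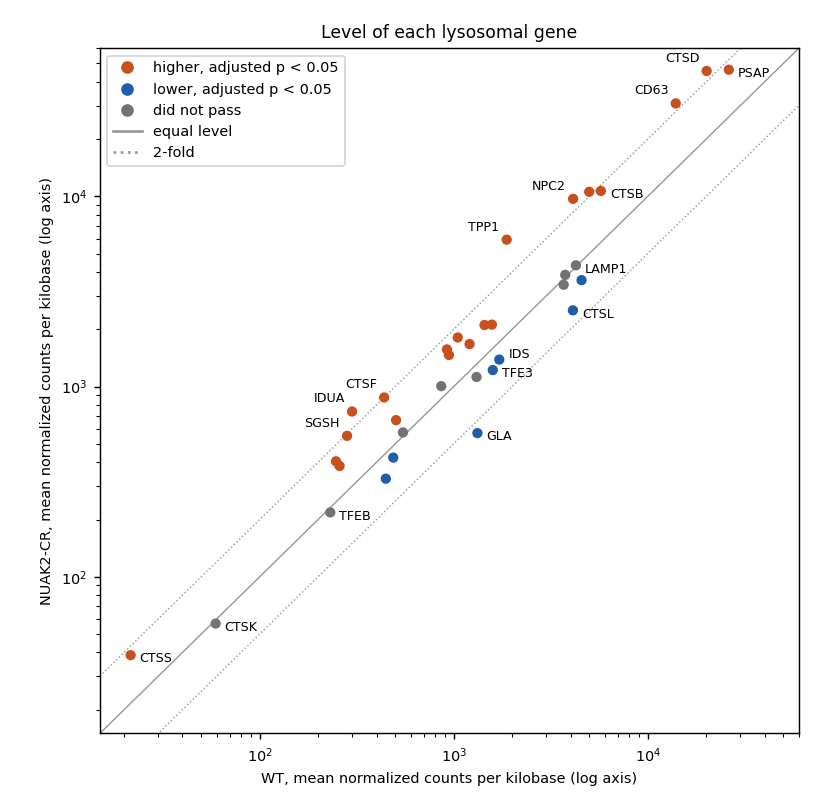
Mean level of the 35 tested lysosomal genes in WT (horizontal) and NUAK2-CR cells (vertical), each the mean of 3 libraries in normalized counts per kilobase of canonical transcript, both on log axes. The solid line marks equal levels and the dotted lines a 2-fold difference, and PSAP, CTSD and CD63 stand at the upper right end, CTSS and CTSK at the lower left.

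Each member was also set beside the genes around it on its chromosome. For every member, the median change of the 50 nearest tested genes on each side, in log2 units, was taken as the level of its neighbourhood. These medians ran from -0.583 (IDS) to 0.281 (TPP1), and 28 of 35 members lay above their own neighbourhood and 7 below, with a median difference of 0.495. All 20 genes that rose lay above their neighbours, by 0.299 to 1.393. This had to be so, because the smallest of these rises, 0.40 for NAGLU, exceeded the highest neighbourhood median. The neighbourhood median was below 0 for some of them, at -0.39 for GAA, -0.35 for SGSH, -0.54 for CTSS and -0.14 for CTSH. It was above 0 for others, at 0.28 for TPP1, 0.23 for IDUA, 0.23 for CTSA, 0.21 for CTSD, 0.16 for CD63, 0.13 for CTSB, 0.11 for ARSA, 0.10 for NPC2, 0.08 for GUSB, 0.08 for CTSF and 0.06 for PSAP. In each of these genes the member's own increase was larger than that of its surroundings, which follows from the same limits.

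Among the genes that fell, 5 of the 7 had a fold change within 0.3 of the neighbourhood median on the log2 scale. These were GM2A, ARSB, IDS, PPT1 and TFE3, and for TFE3 the values were -0.38 for the gene and -0.36 for its neighbours. Their falls were small, from -0.21 (ARSB) to -0.45 (GM2A), which brings them near such medians. SMPD1, which rose, was also within that bound (0.2987). The share of all fallen genes within it was not computed. GLA lay below its neighbourhood by 0.81 on the log2 scale (median -0.40) and CTSL by 0.64 (median -0.07). LAMP1 and LAMP2, whose own values did not pass, sat among genes with medians of -0.37 and -0.53, and TFEB among genes with a median of 0.08. Copy number was not measured, so the part of the neighbourhood in these differences was not tested.

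**Figure D3:**
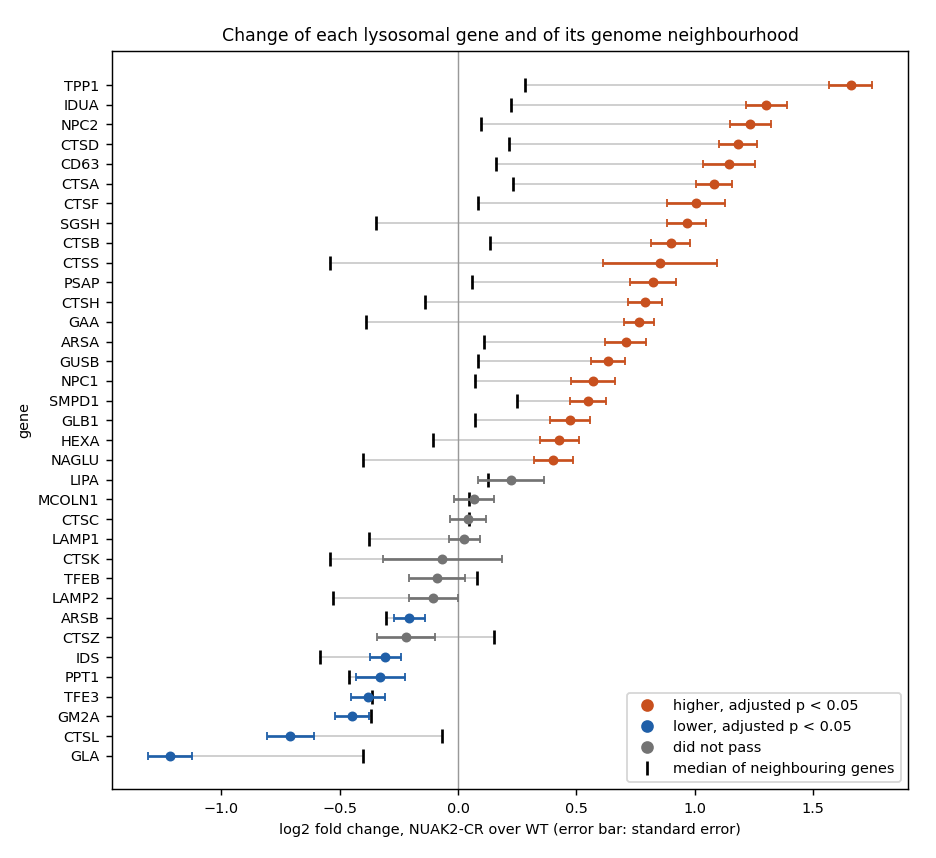
Log2 fold change of each tested lysosomal gene, NUAK2-CR over WT, as points with the standard error, ordered from highest to lowest and coloured by the test result. Vertical marks give the median log2 fold change over up to 100 tested genes around each gene. The mark lies left of the point for all 20 genes that rose, as the size of their rises required.

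The counts of a few members could be affected by an overlapping gene, since featureCounts at its default parameters, as the methods state, does not use strand. On the opposite strand, PPT1 overlaps CAP1, whose mean count was 179% of that of PPT1. NPC1 overlaps RMC1 (34.3% of its count), IDUA overlaps SLC26A1 (18.8%), and the span of LIPA holds IFIT5 (46.5%) and other IFIT genes. Overlaps were taken over whole gene spans, introns included, so these percentages do not measure how many reads were affected. The values of PPT1, NPC1, IDUA and LIPA are uncertain by an amount that was not measured. Other overlapping genes had under 10% of the member's count.

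The 2 untested members differed in what surrounded them. CTSO, a cysteine cathepsin (chr4:155924118-155953866), had 0 counts in all 6 libraries, as did the adjacent genes TDO2 and ASIC5, while PDGFC had 3238 to 5023 counts and MAP9 792 to 1463. A count of 0 allows up to 3 counts per library and covers counting error only. NEU1, the lysosomal sialidase (chr6:31857659-31862821), had counts of 8, 4 and 0 in WT against 0, 0 and 4 in NUAK2-CR cells. It lies in the major histocompatibility region, where 125 of 184 protein-coding genes (67.9%) between positions 28000000 and 34000000 of chromosome 6 had under 18 counts summed over the 6 libraries, compared with 24.3% of protein-coding genes elsewhere. That region includes widely expressed genes such as DDX39B, with 0 counts, and LSM2, with at most 3. The count of NEU1 therefore cannot be read as its expression.

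Lysosomal genes outside the 37 were examined in 7 lists written by function, also with earlier results of these data known. Of their 129 genes, 112 were tested. Of these 112, 44 (39.3%) rose and 26 (23.2%) fell, against 26.3% and 28.2% of all genes tested. Their median log2 fold change was 0.098, between that of the members and that of all genes. The other hydrolases (13 of 25 higher, 5 lower, median 0.322) and other membrane proteins (12 of 23 higher, 4 lower, median 0.241) had the most genes that rose, 52% and 52.2% of those tested. The cystatins, with 2 tested, had both higher (median 0.583). Subunits of the V-ATPase, the proton pump that acidifies the lysosome, were mostly uncalled, with 1 of 20 (5%) higher, below the background, and 5 (25%) lower, near it (median -0.090). Genes for mannose 6-phosphate tagging and sorting had 5 of 11 higher (45.5%) and 1 lower (9.09%, median 0.126). Autophagy genes had 5 of 16 higher and 5 lower (31.2% each, near the background, median -0.065), and regulators of the MiT/TFE factors 6 of 15 higher and 6 lower (40% each, median -0.068).

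**Figure D4:**
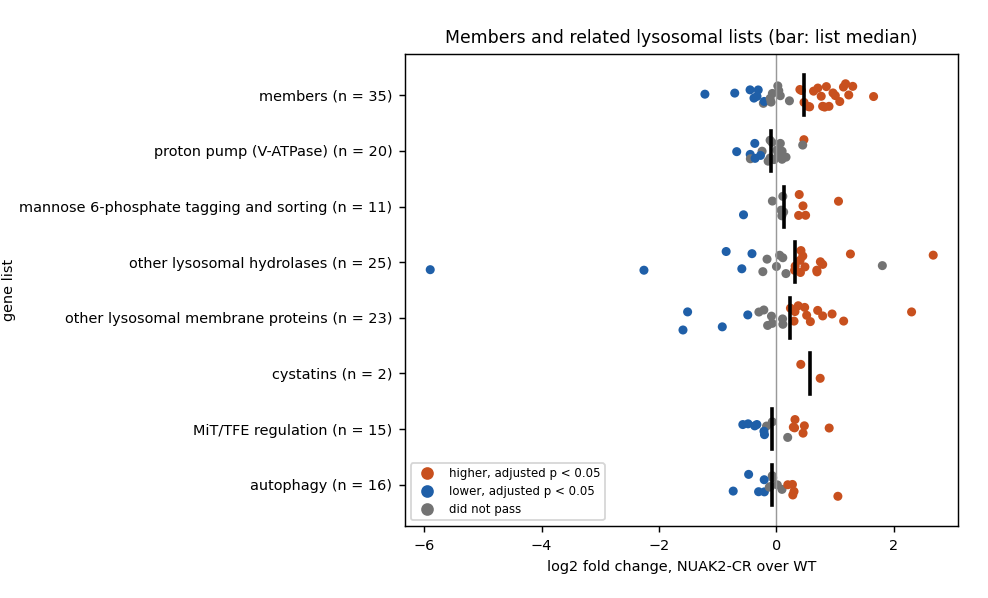
Log2 fold change, NUAK2-CR over WT, of every tested gene of the lysosomal members and of the 7 related lists, 1 point per gene, spread vertically only to separate points. Black bars are list medians, which lie right of 0 for the members (0.473) and for the lists of other hydrolases (0.322) and other membrane proteins (0.241), and left of 0 for the V-ATPase (-0.090).

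The related genes with the smallest adjusted p in each list gave the scale of these differences. GPNMB, a transmembrane glycoprotein of lysosomes and melanosomes, rose from 4801 ± 1067 to 23727 ± 573 normalized counts (SD, n = 3, log2 fold change 2.31, adjusted p = 3.12e-08), and ACP5, the tartrate-resistant acid phosphatase, from 59.2 ± 18.6 to 374 ± 20.6 (2.68, adjusted p = 3.84e-07). CTSV, a close paralog of CTSL, fell as CTSL did, and by more, from 746 ± 46.8 to 156 ± 12.9 (-2.26, adjusted p = 1.5e-08). The other genes named by that rule in these lists were GALNS, a sulfatase of keratan sulfate breakdown (0.79), the lysosomal cation channel TPCN1 (1.15) and the chloride-proton exchanger CLCN7 (0.95), all of which rose. SUMF1, which activates all sulfatases by converting a cysteine in their active site, rose by 1.06 ± 0.08 (adjusted p = 2.5e-07). GNPTG, a subunit of the enzyme that builds the mannose 6-phosphate tag, rose (0.50), and the Golgi sorting adaptor GGA3 fell (-0.56).

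For the pump, ATP6V0B (-0.68) and ATP6AP1 (-0.36) fell and ATP6V0A2 rose (0.47). CST3 and CSTB, cystatins that inhibit cysteine cathepsins and the only tested members of that family, rose as well (0.75 and 0.42, adjusted p = 1.53e-05 and 0.000416). MTOR, the kinase that restrains TFEB and TFE3, fell (-0.57), as did LAMTOR5 of its lysosomal anchor (-0.48), and FNIP2, a partner of folliculin, rose (0.90). Among autophagy genes GABARAPL1 (-0.73) and BECN1 (-0.47) fell and MAP1LC3A (1.05) rose. These values came from the same 6 libraries and are not independent of those of the members. For the genes named by that rule that fell, the neighbourhood median was -0.53 for LAMTOR5, -0.49 for ATP6V0B and -0.47 for ATP6AP1. It was -0.47 for GGA3, -0.35 for BECN1 and -0.29 for MTOR, but -0.05 for CTSV and 0.22 for GABARAPL1. The part of the neighbourhood in these falls was not tested.

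A further 3 genes of these lists were picked after their values were seen. GALC, the galactosylceramidase deficient in Krabbe disease, had counts of 104, 127 and 108 in WT against 0, 4 and 0 in NUAK2-CR cells, near the floor of 3 counts, so its fold change is not given. CD68, a lysosomal membrane protein often used as a macrophage marker, and MCOLN2, a relative of MCOLN1, both fell (log2 fold changes -1.59 and -1.51, adjusted p = 3.08e-07 and 2.92e-06).

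The promoters of the members were searched for the E-box CACGTG, the core of the element bound by TFEB and TFE3, and for the longer TCACGTGA, which contains it. Both read the same on either strand. RefSeq promoter windows, 300 bases running from before the transcription start to just past it on GRCh38.p14, were at hand for 27 of the 37 members and were searched as a description. CACGTG was present in 9 of the 27 members (33.3%) and in 12.2% of all tested genes with a window, or, counted per window, in 22% of 41 member windows, 9.04% of the 17016 windows of tested genes and 7.26% of all 35116 windows. TCACGTGA was present in 4 members (14.8%), CTSA, GAA, LAMP1 and MCOLN1, and in 2.14% of tested genes with a window. Per window, that was 9.76% for the members, 1.58% for tested genes and 0.98% for all. A match in these letters does not show binding.

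Upstream stretches of 8 members are shown on the gene's strand because they set genes that rose beside genes that did not, with the E-box in capitals. CTSA and CTSD, which rose over 2-fold, and GAA, which rose by 0.77 on the log2 scale, hold 1 or 2 E-boxes, in CTSA at chr20:45891281-45891330, + strand, in GAA at chr17:80101496-80101562, + strand, and in CTSD at chr11:1763948-1763987, - strand. CTSF, which also rose, has 2 at chr11:66568646-66568741, - strand. LAMP1 at chr13:113297039-113297110, + strand, and MCOLN1 at chr19:7522574-7522621, + strand, hold 4 and 2 E-boxes in the stretches shown, and neither passed the test. The longer TCACGTGA matches of LAMP1, beginning at -29 and -2 relative to the transcription start, lie outside the stretch shown. The 60 bases before the start of TPP1 at chr11:6619423-6619482, - strand, the member that rose most, hold no CACGTG. Nor do those of GLA at chrX:101407926-101407985, - strand, the member that fell most, and the whole windows of both genes held none. The TPP1 stretch does hold the similar sequences CATGTG and CACATG, but only CACGTG and TCACGTGA were searched for.
CTSA: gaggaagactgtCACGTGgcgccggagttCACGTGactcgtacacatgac
GAA: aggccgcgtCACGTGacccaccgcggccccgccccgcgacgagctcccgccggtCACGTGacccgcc
CTSD: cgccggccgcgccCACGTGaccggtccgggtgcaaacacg
CTSF: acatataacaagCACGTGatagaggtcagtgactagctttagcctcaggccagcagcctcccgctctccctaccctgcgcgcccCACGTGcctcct
LAMP1: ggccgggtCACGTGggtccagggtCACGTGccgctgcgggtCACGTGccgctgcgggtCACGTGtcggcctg
MCOLN1: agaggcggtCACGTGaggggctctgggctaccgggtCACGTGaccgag
TPP1: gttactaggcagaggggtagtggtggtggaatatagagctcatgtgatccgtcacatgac
GLA: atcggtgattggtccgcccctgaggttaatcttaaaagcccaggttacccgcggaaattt

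Of the 9 members with a CACGTG in their window, 5 rose (CTSD, CD63, CTSA, CTSF and GAA), 1 fell (ARSB, whose call depends on single libraries), 2 did not pass (LAMP1 and MCOLN1) and NEU1 was not tested. Of the 18 with a window and no CACGTG, 8 rose, 6 fell and 4 did not pass. The plot of E-box positions shows most sites before the transcription start. Most of each window searched also lies there, so this placement follows largely from the search. With so few genes on each side these counts are a description only.

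**Figure D5:**
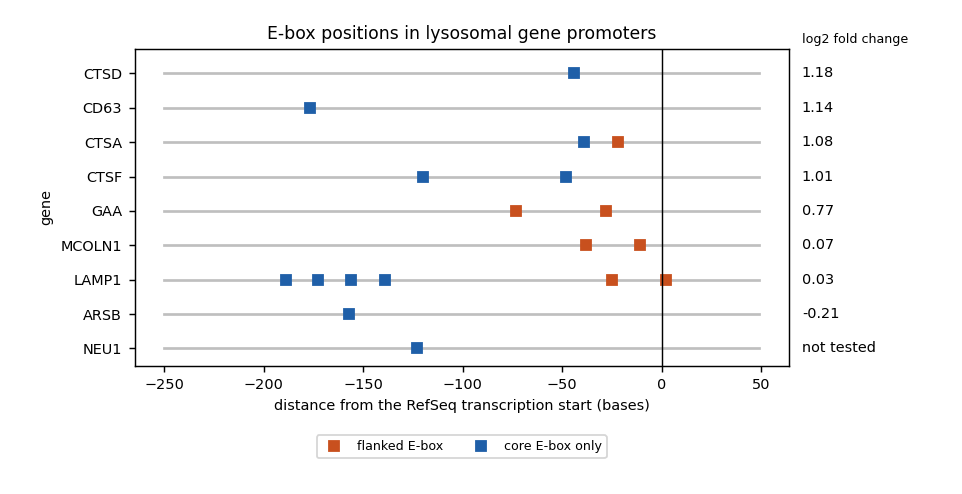
Positions of the E-box in the RefSeq promoter windows of the 9 lysosomal genes that hold it, in bases from the transcription start (vertical line), with genes on the vertical axis ordered by log2 fold change, which is printed at the right. Orange squares are E-boxes with the longer flanking match and blue squares the core alone, and LAMP1 holds the most, 6, at a log2 fold change of 0.03.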

How the data were processed

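RNA from 3 WT and 3 NUAK2-CR libraries of U251 cells was isolated with TRIzol and prepared with a stranded mRNA kit for paired-end NovaSeq sequencing. After trimming (Trimmomatic) and alignment to hg38 (HISAT2), the authors counted reads per gene with featureCounts at default parameters and deposited the raw counts. Those defaults ignore strand. Tool versions and the annotation are not given in the sources used here. Groups and replicate numbers were taken from the labels.

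Of 28395 identifiers, 27745 were matched to a symbol in the RefSeq table of GRCh38.p14, which also gave coordinates and promoters. Canonical transcript lengths came from GENCODE release 44. Counts were analysed in R 4.3.3 with edgeR 4.0.16 (filterByExpr, TMM, quasi-likelihood F test, prior count 0.125) and Benjamini-Hochberg adjustment over 14873 genes, and a call needed an adjusted p under 0.05. For normalized counts, the mean effective size of the libraries was the common scale. The script was tested on simulated data. Members with an absolute log2 fold change over 0.58 among those called are given with every library, as are TFEB and TFE3, and the 3 genes of smallest adjusted p are named per related list. The members and lists were chosen with earlier results of these data known. Alternatives were DESeq2 1.42.0, RLE scaling, library totals, other filters, a prior count of 2, a replicate block and leaving out each library. The SD of a summed share of counts measures the spread between the 3 libraries of a group, which may be technical.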

Additional observations from a re-analysis of the deposited data

How the results depend on the processing

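Under 13 alternative settings, the 20 members called higher were called higher in every one, and 5 of the 7 called lower were called lower in every one. The counts of lower members ran from 5 to 9, of members past 2-fold from 7 to 9, of related genes higher from 39 to 45 and lower from 21 to 29, the NUAK2 log2 fold change from -1.016 to -0.796, and the ratio of the summed members from 1.519 to 1.683. No member remained with the study's limit of an absolute log2 fold change over 2, a count of 0. The calls of ARSB and PPT1 were lost when some single libraries were left out (ARSB for 5 of the 6, PPT1 for 3). Members that did not pass changed sign when 1 library was left out, CTSC (-0.028 to 0.099), LAMP1 (-0.009 to 0.056) and CTSK (-0.286 to 0.153), and the cause was not tested. The median log2 fold change of all genes moved by less than 0.1 in every setting (-0.047 to 0.001). Replicate numbers did not pair the libraries (correlations of deviations 0.0428, -0.0352 and 0.0478), and a fit with the replicate block gave 20 higher and 7 lower members and 44 and 26 related genes. Depth limits CTSS and CTSK, which had at most 163 normalized counts in any library. CTSO and NEU1 had too few counts to be tested, and the cause was not tested. No result rests on more than 3 libraries per group.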
